A study of Mus musculus with 6 samples.

Results

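The 51 genes described here act in the DNA damage checkpoint and in the repair of DNA breaks. They comprise the ATM and ATR signaling genes, the homologous recombination genes, the Fanconi anemia genes and the end joining genes, chosen by name, and all 51 were found among the 24190 genes with counts. They were measured by RNA sequencing in MTO54 parental, a mouse tumor organoid (MTO) line of AKP genotype. All 6 cultures shared this genotype and were grown from single cells in stem cell medium. The 3 Folfiri cultures received SN38 at 100 nM together with 5FU, for which the labels write 50 μg/μl (a unit that may be a slip and was not checked), over 2 days from day 2 after seeding, and the 3 control cultures received medium alone. These times are those of the labels and the study's methods, and a figure legend of the study gives a longer treatment. The comparison asks how the RNA of these genes stood after chemotherapy. The study calls the cultures of a condition biological replicates, the labels number them without saying how they were separated, and all come from 1 line, so p-values measure the spread between cultures of that line.

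DNA breaks and stalled replication forks are sensed by the kinases ATM and ATR, which phosphorylate mediators and the effector kinases CHK1 and CHK2, halt the cell cycle and recruit repair factors. Broken ends are either joined directly, or cut back to single strands and repaired by copying a sister chromatid, and the Fanconi anemia proteins unhook crosslinks that block forks. SN38, the active form of irinotecan, traps topoisomerase I on DNA, and 5FU, a pyrimidine analog, disturbs thymidylate supply and is built into nucleic acids, so that in dividing cells both are known to stall or break forks. Much of this machinery is regulated on the protein, by phosphorylation and ubiquitin, which RNA levels do not show.

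Counts per sample ranged from 22103591 to 30098210. Levels are CPM, the count of a gene scaled to a fixed library size after TMM normalization, fold changes are Folfiri over control on the log2 scale, and a gene was called higher or lower where the quasi-likelihood test of edgeR gave a Benjamini-Hochberg adjusted p under 0.05 over all 14692 tested genes. Positions are those of GENCODE on GRCm38. Control replicate 1 stood apart: its level was the highest of the 3 controls for 39 of the 51 genes, and the median absolute log2 distance of the genes to the mean of the other controls was 0.28, against 0.11 between control replicates 2 and 3. Over all 14692 tested genes it was the highest control for 6418 and the lowest for 6025, and the distances were 0.19 and 0.08. Reads on mitochondrial genes made up 2.09 to 2.36% of counts in controls and 3.95 to 4.44% after Folfiri, and the TMM factors were 0.880 to 0.966 and 1.10 to 1.11. Of 10 epithelial markers 9 reached 1 CPM in both groups, Cdx1 being near 0, with summed levels of 6230 to 7240 CPM in controls and 4990 to 5190 CPM after Folfiri. Of the 9 immune markers with counts 1 (Cd68) reached 1 CPM in controls and 2 after Folfiri, and the list summed to 21.4 to 26.2 CPM in controls and 21.8 to 22.8 CPM after Folfiri. Fibroblast markers summed to 1.08 to 1.44 and 2.06 to 2.45 CPM, with 0 and 1 of 7 at 1 CPM. The 4 endothelial markers summed to 72.2 to 125 and 65.7 to 76.4 CPM, nearly all of it Cdh5, while Pecam1, Kdr and Tek were near 0.

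All 51 genes passed the filter on low counts. In RNA of whole cultures, fewer cells of a kind and less RNA per cell cannot be told apart. After Folfiri 22 of them (43.1%) were higher, 16 (31.4%) were lower and 13 (25.5%) were not called. Among all tested genes 79.1% were called, 40.3% higher and 38.8% lower, so the share of genes called was close to that of the transcriptome. A call with a log2 fold change of at least 1 was made for 10 genes upward, against 19.5% of all genes, and for 4 downward, against 16.8%. The samples of both groups did not overlap in 41 of the 51 genes, beside 81.4% of all genes. The median log2 fold change was 0.08, against 0.02 over all tested genes, and single genes lay between -3.15 (Rad51b) and 2.41 (Exo1). Without control replicate 1 the counts were 25 higher and 16 lower, with a median of 0.09, and without control replicate 2 the median was -0.03. With scaling by total counts only they were 26 higher and 12 lower, and the median of all tested genes moved from 0.02 to 0.30, with 7322 higher and 4250 lower calls in place of 5926 and 5697. Each of the 7 role groups below held genes called higher and genes called lower. Of the 38 calls, 32 stood in all 13 other ways of processing that were tried.

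**Figure D1:**
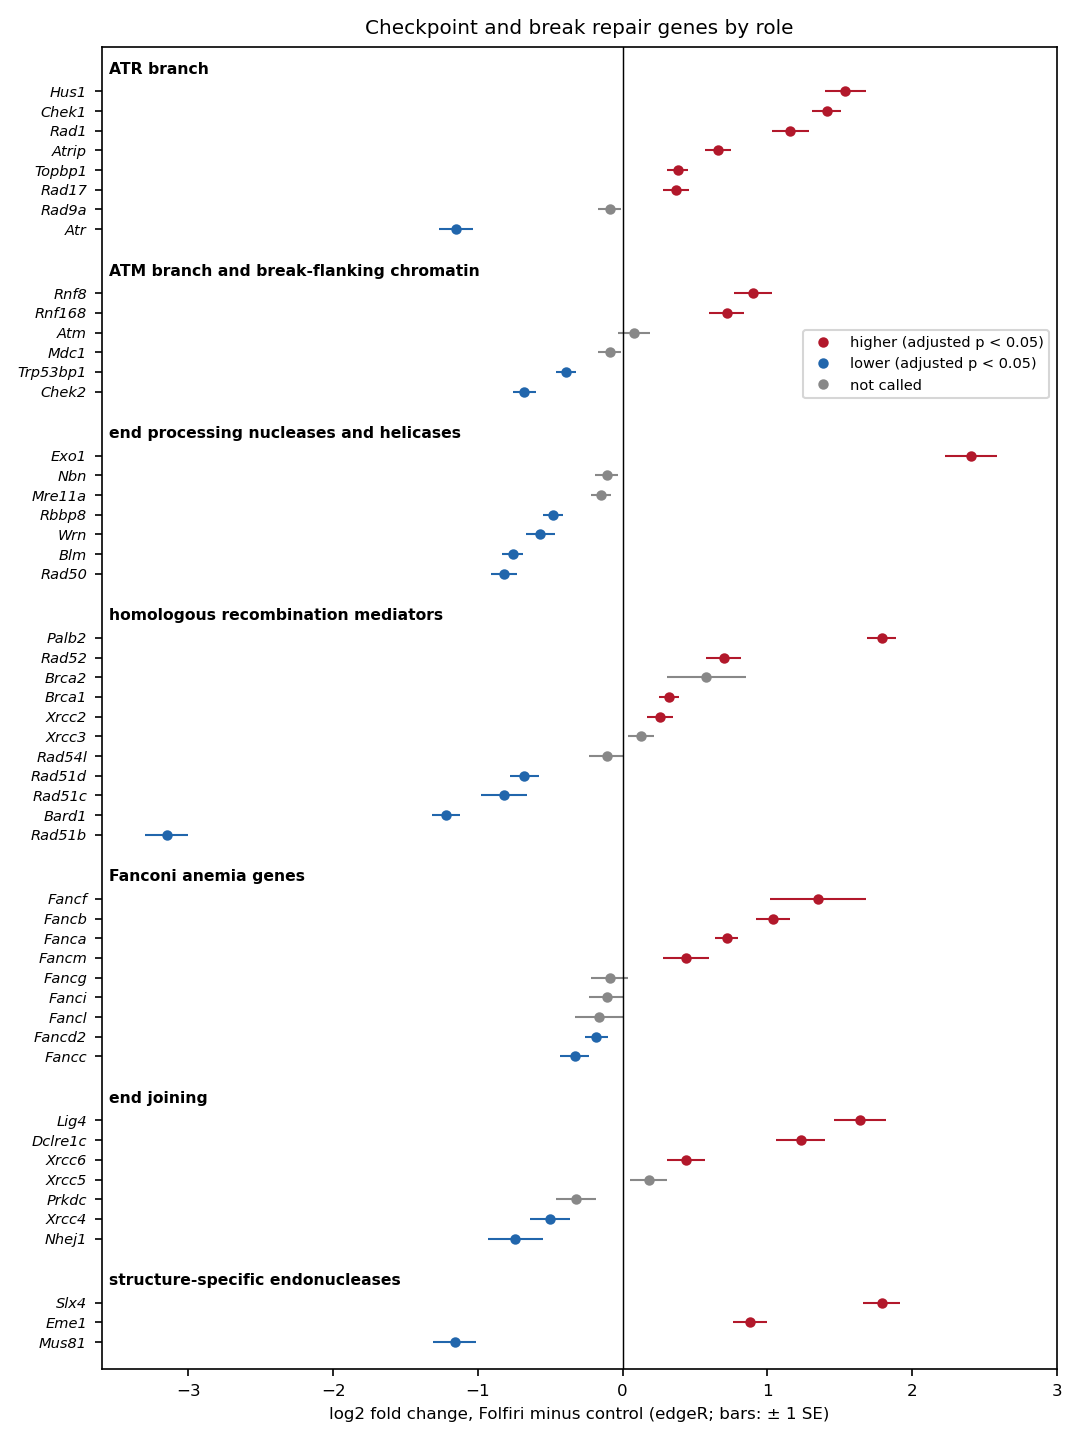
Log2 fold change of each of the 51 genes, Folfiri over control, with bars of 1 SE from edgeR, grouped by role and ordered by size. Red points are called higher (22), blue points lower (16) and grey points not called (13), and the outermost are Exo1 at 2.41 and Rad51b at -3.15.

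Promoter windows of RefSeq on GRCm38.p6, from 250 bases before to 50 bases after a start site, were matched to 41 of the 51 genes. They were searched on both strands for letters that growth-linked promoters often carry. The letters TTTCCCGC or TTTGGCGC, which E2F factors are known to bind, stood in the windows of 6 of the 41 genes (14.6%), against 1.56% of all 32851 windows. The letters TTTGAA, the cell cycle homology region, stood in 9.76% of the windows against 17.9% of all, and CCAAT in 51.2% against 37.4%. The 6 stretches with E2F letters are shown because they can be read beside the calls: Chek2 and Bard1 were lower after Folfiri, Xrcc6 was higher, and Brca2, Mdc1 and Fancg were not called. Capitals mark the matched letters, and each stretch is written along the strand of its gene.
Bard1: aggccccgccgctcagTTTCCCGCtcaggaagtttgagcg
Chek2: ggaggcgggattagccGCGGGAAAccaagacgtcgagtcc
Xrcc6: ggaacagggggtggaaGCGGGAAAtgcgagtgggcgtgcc
Brca2: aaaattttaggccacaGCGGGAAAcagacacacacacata
Mdc1: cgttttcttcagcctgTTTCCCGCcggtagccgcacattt
Fancg: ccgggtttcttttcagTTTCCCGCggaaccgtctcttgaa

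These stretches lie at chr1:71103158-71103197 (Bard1, minus strand), chr5:110839815-110839854 (Chek2, plus strand), chr15:82016307-82016346 (Xrcc6, plus strand), chr5:150522437-150522476 (Brca2, plus strand), chr17:35841466-35841505 (Mdc1, plus strand) and chr4:43010330-43010369 (Fancg, minus strand). Counted from the RefSeq start as +1, the match begins at -209 in Bard1, -152 in Chek2, -168 in Brca2, -52 in Fancg, -46 in Xrcc6 and -16 in Mdc1. That of Bard1 lies 35 bases before the most upstream GENCODE start. The RefSeq start of Fancg lies 205 bases downstream of its most upstream GENCODE start, so by GENCODE its match lies within the gene. The windows of Fancc, Xrcc6 and Slx4 belong to starts that lie 65.53, 28.53 and 2.09 kb from the outermost ones in GENCODE. By call, the letters were present in 1 of 20 windows of genes that were higher, in 2 of 11 of genes that were lower and in 3 of 10 of genes that were not called. The match of letters is a description and was not tested as a binding site.

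The ATR branch responds to single-stranded DNA at stalled forks. Of its 8 genes 6 were higher, 1 was lower and 1 was not called, beside 40.3% higher and 38.8% lower among all tested genes, with a median log2 fold change of 0.52 (0.80 with total counts only). Hus1 and Rad1 encode subunits of the checkpoint clamp that is loaded where single-stranded DNA meets a primer. Hus1 (ENSMUSG00000020413, chr11:8993137-9011191, minus strand) stood at 14.2, 9.64 and 9.67 CPM in controls 1 to 3, respectively, and 33.5, 31.3 and 33.3 CPM in the Folfiri samples 1 to 3. All treated samples lay above all controls, and the level rose from 11.2 ± 2.62 to 32.7 ± 1.21 CPM (SD, n = 3 each), with log2 fold change 1.54 ± 0.14 SE, adjusted p = 2.31e-06. For Rad1 (ENSMUSG00000022248, chr15:10486018-10499063, plus strand) the levels were 13.0, 9.68 and 8.74 CPM in controls and 23.6, 23.3 and 23.9 CPM after Folfiri. Its 3 treated samples were within 1 CPM of each other and above every control (log2 fold change 1.16 ± 0.13 SE, adjusted p = 1.39e-05). Rad9a, the remaining clamp subunit, was not called, at 28.7, 29.2 and 26.9 CPM in controls 1 to 3, respectively, and 26.3, 25.8 and 27.5 CPM in the Folfiri samples 1 to 3, where the groups overlapped (log2 fold change -0.09 ± 0.08 SE, adjusted p = 0.301).

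The effector kinase of this branch, Chek1 (ENSMUSG00000032113, chr9:36708482-36727065, minus strand), which restrains CDK activity while forks are stalled, was measured at 14.8, 12.5 and 11.4 CPM in controls 1 to 3, respectively, and 34.2, 33.8 and 35.2 CPM in the Folfiri samples 1 to 3. Its level rose from 12.9 ± 1.75 to 34.4 ± 0.734 CPM (SD, n = 3 each), with groups that did not overlap (log2 fold change 1.41 ± 0.10 SE, adjusted p = 5.06e-07). Atr (ENSMUSG00000032409, chr9:95857597-95951781, plus strand), the kinase that heads the branch, moved the other way. It was at 42.0, 30.8 and 36.1 CPM in controls and 16.3, 17.7 and 15.1 CPM after Folfiri, so that the highest treated sample was well under the lowest control (log2 fold change -1.15 ± 0.12 SE, adjusted p = 6.28e-06). Atrip (ENSMUSG00000025646, chr9:109057933-109074124, minus strand), the protein through which ATR reaches coated single-stranded DNA, stood at 17.4, 15.8 and 14.3 CPM in controls and 24.4, 25.6 and 25.5 CPM after Folfiri, and these groups did not overlap (log2 fold change 0.66 ± 0.09 SE, adjusted p = 7.42e-05). Atrip shares 16% of its exonic length with Trex1 on the same strand, and reads there cannot be assigned to either gene with certainty. Rad17, the loader of the clamp, and Topbp1, the activator of ATR, were also higher, with log2 fold changes of 0.37 and 0.38. Topbp1 was the most abundant of the 51 genes per length of transcript, at 17.7 CPM per kb of exon in controls and 23.1 after Folfiri.

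In the ATM branch and the chromatin that flanks breaks, 2 of 6 genes rose, 2 fell and 2 were not called (33.3% each, beside 40.3% and 38.8% of all tested genes called higher and lower), and the median log2 fold change was -0.01 (0.26 with total counts only, and between -0.08 and 0.10 with 1 sample left out). The 2 genes that rose encode ubiquitin ligases that act in sequence on histones beside a break. Rnf8 (ENSMUSG00000090083, chr17:29614790-29644991, plus strand), the first of them, was at 5.87, 4.84 and 4.63 CPM in controls 1 to 3, respectively, and 9.52, 9.46 and 9.89 CPM in the Folfiri samples 1 to 3. The treated samples were all above the controls (log2 fold change 0.90 ± 0.13 SE, adjusted p = 6.47e-05), although this was the least abundant of the 51 genes per length in controls, at 0.437 CPM per kb, and 13.2% of its exonic length is shared with Gm28043. Rnf168 (ENSMUSG00000014074, chr16:32277459-32301434, plus strand), which spreads the mark, was at 30.9, 22.9 and 22.7 CPM in controls and 44.4, 43.2 and 38.6 CPM after Folfiri, again with no overlap (log2 fold change 0.72 ± 0.12 SE, adjusted p = 0.00026).

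Chek2 (ENSMUSG00000029521, chr5:110839979-110874145, plus strand), the effector kinase downstream of ATM, stood at 53.4, 48.4 and 45.6 CPM in controls 1 to 3, respectively, and 30.3, 30.1 and 31.7 CPM in the Folfiri samples 1 to 3. It fell from 49.1 ± 3.93 to 30.7 ± 0.862 CPM (SD, n = 3 each), and the groups did not overlap (log2 fold change -0.68 ± 0.08 SE, adjusted p = 2.13e-05). Trp53bp1 (ENSMUSG00000043909, chr2:121193281-121271407, minus strand), which reads the ubiquitin mark and limits the cutting back of ends, was at 37.6, 36.5 and 38.2 CPM in controls and 29.6, 28.0 and 27.9 CPM after Folfiri. The fall was small but larger than the spread in either group (log2 fold change -0.39 ± 0.07 SE, adjusted p = 0.000573), and with total counts only it was -0.12 and was not called. An overlap with Tubgcp4 on the opposite strand covers 15.0% of its exonic length. Atm (ENSMUSG00000034218, chr9:53439149-53536740, minus strand) was not called, at 40.9, 30.4 and 35.1 CPM in controls 1 to 3, respectively, and 38.0, 40.2 and 34.5 CPM in the Folfiri samples 1 to 3 (log2 fold change 0.08 ± 0.11 SE, adjusted p = 0.51), and called higher without control replicate 1, at 0.20 (adjusted p = 0.0461), and with total counts only, at 0.35 (adjusted p = 0.0397). Without control replicate 2 its value was -0.03. Mdc1, the scaffold that binds phosphorylated H2AX, gave -0.09 and was not called.

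Among the nucleases and helicases that process ends, 1 of 7 genes rose (14.3%), 4 fell (57.1%) and 2 were not called, beside 40.3% and 38.8% of all tested genes. The median log2 fold change was -0.48 (-0.20 with total counts only). The samples of both groups did not overlap in any of the 7, beside 81.4% of all tested genes without overlap. Exo1 (ENSMUSG00000039748, chr1:175880581-175913489, plus strand), an exonuclease of long-range resection and of mismatch repair, had the largest rise of all 51 genes. Its levels were 12.5, 7.68 and 6.89 CPM in controls 1 to 3, respectively, and 45.7, 48.9 and 50.5 CPM in the Folfiri samples 1 to 3. Every treated sample was more than 30 CPM above every control, and the level rose from 9.01 ± 3.01 to 48.4 ± 2.45 CPM (SD, n = 3 each), with log2 fold change 2.41 ± 0.18 SE, adjusted p = 5.05e-07. No promoter window was matched to it.

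The genes that fell in this group encode the zinc hook subunit of the MRN complex, a pair of RecQ helicases and the starter of resection. Rad50 (ENSMUSG00000020380, chr11:53649519-53707319, minus strand) was at 73.9, 60.1 and 61.3 CPM in controls and 37.3, 38.3 and 34.9 CPM after Folfiri, and it fell from 65.1 ± 7.65 to 36.8 ± 1.73 CPM (SD, n = 3 each) without overlap (log2 fold change -0.82 ± 0.09 SE, adjusted p = 1.36e-05). Blm (ENSMUSG00000030528, chr7:80454733-80535119, minus strand), the helicase mutated in Bloom syndrome, was at 59.6, 54.5 and 56.5 CPM in controls and 32.5, 34.5 and 33.7 CPM after Folfiri, which are tight and separate groups (log2 fold change -0.76 ± 0.07 SE, adjusted p = 4.28e-06). Wrn (ENSMUSG00000031583, chr8:33234384-33385527, minus strand), mutated in Werner syndrome, was at 53.0, 50.1 and 52.6 CPM in controls and 37.3, 37.8 and 30 CPM after Folfiri, with Folfiri replicate 3 the lowest of all samples (log2 fold change -0.57 ± 0.10 SE, adjusted p = 0.000268). Rbbp8, which encodes CtIP, had a log2 fold change of -0.48. The other MRN subunits, the nuclease Mre11a and the ATM-recruiting Nbn, had values of -0.15 and -0.11 with adjusted p = 0.0772 and 0.218 from edgeR, and were not called, though their groups did not overlap. Without control replicate 1 Mre11a was called lower at -0.18 (adjusted p = 0.0231), and with total counts only Mre11a and Nbn turned to 0.12 and 0.17.

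Among homologous recombination mediators 4 of 11 genes (36.4%) were higher, 4 lower and 3 not called, close to the 40.3% and 38.8% of all tested genes, and the median log2 fold change was 0.13 (0.41 with total counts only). Rad51b (ENSMUSG00000059060, chr12:79297282-79814690, plus strand), a paralog of the recombinase that helps load it on single strands, fell furthest of all 51 genes. It stood at 8.89, 8.6 and 9.67 CPM in controls 1 to 3, respectively, and 0.905, 1.0 and 1.12 CPM in the Folfiri samples 1 to 3. The level dropped from 9.05 ± 0.552 to 1.01 ± 0.109 CPM (SD, n = 3 each), to the lowest of the 51 genes per length after treatment, 0.269 CPM per kb, and the groups did not overlap (log2 fold change -3.15 ± 0.15 SE, adjusted p = 3.29e-08). The 250 bases before its start at chr12:79297032-79297281 (plus strand), where RefSeq and GENCODE place the start at the same base, are shown because this gene carried the largest fall. The capitals mark ATTGG, the reverse complement of CCAAT, which begins at position -15, and no E2F or TTTGAA letters were in the window.
Rad51b: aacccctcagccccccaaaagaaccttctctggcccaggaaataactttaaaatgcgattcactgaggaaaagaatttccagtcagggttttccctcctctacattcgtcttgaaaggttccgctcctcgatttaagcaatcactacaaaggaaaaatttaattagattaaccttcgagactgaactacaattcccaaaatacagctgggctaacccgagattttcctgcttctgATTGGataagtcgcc

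Of the other paralogs, Rad51c (ENSMUSG00000007646, chr11:87376645-87404954, minus strand) was at 11.0, 8.12 and 7.92 CPM in controls and 5.87, 4.45 and 5.1 CPM after Folfiri, and its groups did not overlap (log2 fold change -0.82 ± 0.16 SE, adjusted p = 0.00083). Rad51d was lower as well, at -0.68. Xrcc2 was called higher at 0.26 with adjusted p = 0.0255, a call that was lost in 8 of 13 other ways of processing, and Xrcc3 gave 0.13 and was not called, but was called higher at 0.41 with total counts only. Of the 5 paralogs, which form complexes with each other, 3 were thus lower, 1 was higher and 1 was not called. Among all tested genes 38.8% were lower and 40.3% higher.

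The BRCA1 to BRCA2 axis, which brings the recombinase to resected ends, moved unevenly. Palb2 (ENSMUSG00000044702, chr7:122107262-122132985, minus strand), the bridge between BRCA1 and BRCA2, was at 10.1, 8.4 and 8.18 CPM in controls 1 to 3, respectively, and 29.8, 31.6 and 31.0 CPM in the Folfiri samples 1 to 3. The level rose from 8.89 ± 1.04 to 30.8 ± 0.903 CPM (SD, n = 3 each) in all 3 treated samples (log2 fold change 1.79 ± 0.10 SE, adjusted p = 9.68e-08). The stretch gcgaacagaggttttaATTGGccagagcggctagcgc at chr7:122132925-122132961 (minus strand) holds the only match in its window, with the reverse complement of CCAAT in capitals, and the match begins at base 2 of the RefSeq transcript. Bard1 (ENSMUSG00000026196, chr1:71027498-71103146, minus strand), whose protein is the obligate partner of BRCA1 in a ubiquitin ligase, went down, with 25.0, 30 and 28.4 CPM in controls 1 to 3, respectively, and 11.3, 12.8 and 11.7 CPM in the Folfiri samples 1 to 3. Each treated sample lay far below each control (log2 fold change -1.22 ± 0.10 SE, adjusted p = 1.28e-06). Brca1 (ENSMUSG00000017146, chr11:101488764-101551955, minus strand) itself was at 59.9, 59.4 and 55.9 CPM in controls and 71.4, 76.0 and 71.6 CPM after Folfiri, a small rise without overlap (log2 fold change 0.32 ± 0.07 SE, adjusted p = 0.00158).

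Brca2, the loader of the recombinase, depended on 1 library and on the processing. It stood at 20.1, 9.08 and 8.54 CPM in controls 1 to 3, respectively, and 20.1, 20.1 and 17.2 CPM in the Folfiri samples 1 to 3, so control replicate 1 matched the treated samples and the groups overlapped. The log2 fold change was 0.58 ± 0.27 SE with adjusted p = 0.0637 from edgeR, and 1.11 with adjusted p = 4.91e-07 without control replicate 1. With no sample left out, Brca2 was also called higher with total counts only (0.84), without a filter (0.56) and with the replicate number as a block (0.69). Rad52, an annealing protein, was higher at 0.70, and Rad54l, a DNA motor of strand exchange, was not called at -0.11.

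Fanconi anemia genes gave 4 of 9 higher (44.4%), 2 lower (22.2%) and 3 not called, beside 40.3% and 38.8% of all tested genes, with a median log2 fold change of -0.09 that was 0.06 without control replicate 1 and 0.18 with total counts only. The 4 that rose encode parts of the core complex or its anchor. Fancf (ENSMUSG00000092118, chr7:51860577-51862267, minus strand), an adaptor of the core complex, was at 2.41, 0.68 and 1.03 CPM in controls 1 to 3, respectively, and 3.59, 3.52 and 3.73 CPM in the Folfiri samples 1 to 3. These are the lowest control levels of the genes described in full here, and control replicate 1 was more than 2 times as high as the others (log2 fold change 1.35 ± 0.33 SE, adjusted p = 0.00302). Without that replicate the log2 fold change was 2.11, and 15.0% of its exonic length overlaps Gas2 on the opposite strand. Fancb (ENSMUSG00000047757, chrX:164980592-164997272, plus strand), which sits with the ligase FANCL, was at 8.39, 6.32 and 7.2 CPM in controls and 14.9, 15.5 and 14.7 CPM after Folfiri, with no overlap (log2 fold change 1.04 ± 0.12 SE, adjusted p = 1.57e-05).

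Fanca (ENSMUSG00000032815, chr8:123268300-123318576, minus strand), a core complex member often mutated in the disease, stood at 46.3, 40.2 and 43.2 CPM in controls and 70.2, 69.8 and 73.2 CPM after Folfiri. It rose from 43.2 ± 3.08 to 71.1 ± 1.81 CPM (SD, n = 3 each; log2 fold change 0.72 ± 0.08 SE, adjusted p = 9.01e-06), beside an overlap with Zfp276 on the opposite strand over 10.5% of its exonic length. Fancm (ENSMUSG00000055884, chr12:65075603-65132058, plus strand), a translocase that anchors the complex to DNA, was at 12.1, 7.84 and 8.84 CPM in controls and 12.4, 14.5 and 12.3 CPM after Folfiri. Its lowest treated sample exceeded the highest control by under 1 CPM (log2 fold change 0.44 ± 0.16 SE, adjusted p = 0.0255), and the call was lost without control replicate 2, control replicate 3 or Folfiri replicate 2, with values of 0.30, 0.37 and 0.36. Fancc, a core complex gene, was lower at -0.33, and -0.06 and not called with total counts only. Fancd2, the clamp protein that the complex marks with ubiquitin, was called at -0.18 with adjusted p = 0.0455 from edgeR, a call lost in 12 of 13 other ways of processing, and the value was 0.09 with total counts only. Fancg, Fancl and Fanci were not called, with values between -0.16 and -0.09 that had no stable sign. Without control replicate 1 Fancl was at 0.06 and Fanci at 0.02, without Folfiri replicate 2 Fancg was at 0.02, and with total counts only they were at 0.11, 0.16 and 0.18. Overlaps on the opposite strand cover between 13.7 and 18.6% of the exonic length of Fancc, Fancl and Fanci, and 15.4% of that of Rad54l.

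End joining genes comprised 3 higher (42.9%), 2 lower (28.6%) and 2 not called among 7, beside 40.3% and 38.8% of all tested genes. The median log2 fold change was 0.18, and it was 0.36 without control replicate 1, 0.06 without control replicate 3 and 0.45 with total counts only. Lig4 (ENSMUSG00000049717, chr8:9969049-9977686, minus strand), the ligase that seals ends, was at 9.72, 5.96 and 5.45 CPM in controls 1 to 3, respectively, and 21.7, 23.6 and 21.2 CPM in the Folfiri samples 1 to 3. All treated samples were more than 2 times as high as any control, and the level rose from 7.04 ± 2.33 to 22.2 ± 1.22 CPM (SD, n = 3 each), with log2 fold change 1.64 ± 0.18 SE, adjusted p = 1.07e-05. Dclre1c (ENSMUSG00000026648, chr2:3424131-3464130, plus strand), which encodes the nuclease Artemis, was at 9.61, 5.44 and 7.1 CPM in controls and 17.1, 18.3 and 16.8 CPM after Folfiri, also without overlap (log2 fold change 1.23 ± 0.17 SE, adjusted p = 5.97e-05).

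RNA of the genes for scaffold proteins that hold the ligase in place was lower. Xrcc4 (ENSMUSG00000021615, chr13:89774027-90089608, minus strand), the direct partner of LIG4, was at 8.75, 7.56 and 6.53 CPM in controls and 5.16, 6.04 and 5.04 CPM after Folfiri, where the groups came within 1 CPM of each other (log2 fold change -0.50 ± 0.14 SE, adjusted p = 0.00813). Its value with total counts only was -0.23 and was not called. Nhej1 (ENSMUSG00000026162, chr1:74967139-75125200, minus strand), which encodes XLF and forms filaments with XRCC4, was at 2.34, 3.48 and 2.88 CPM in controls and 1.84, 1.74 and 1.61 CPM after Folfiri, a low level with separate groups (log2 fold change -0.74 ± 0.19 SE, adjusted p = 0.00422). Of the Ku heterodimer that encircles ends, Xrcc6 was higher at 0.44 and Xrcc5 gave 0.18 and was not called, but was 0.36 with adjusted p = 0.00276 from edgeR without control replicate 1. Prkdc, the kinase subunit that Ku recruits, gave -0.32 (adjusted p = 0.0628) and -0.14 without control replicate 1, and it was called lower without control replicate 2 (-0.46) and with no filter on low counts (-0.35).

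All 3 genes of the structure-specific endonucleases, which cut branched DNA, were called, 2 higher and 1 lower, beside 79.1% called among all tested genes. Slx4 (ENSMUSG00000039738, chr16:3979105-4003770, minus strand), the scaffold to which such nucleases dock, was at 14.9, 10.1 and 11.5 CPM in controls 1 to 3, respectively, and 40.3, 43.5 and 42.7 CPM in the Folfiri samples 1 to 3. It rose from 12.2 ± 2.49 to 42.2 ± 1.64 CPM (SD, n = 3 each), with every treated sample more than 2 times as high as every control (log2 fold change 1.79 ± 0.13 SE, adjusted p = 4.36e-07). Mus81 (ENSMUSG00000024906, chr19:5482345-5488402, minus strand), a catalytic subunit that docks there, was at 13.3, 10.1 and 9.41 CPM in controls and 4.73, 5.36 and 4.67 CPM after Folfiri, and each treated sample was lower than each control (log2 fold change -1.16 ± 0.15 SE, adjusted p = 3.78e-05). Eme1 (ENSMUSG00000039055, chr11:94644996-94653964, minus strand), its essential partner, was at 9.87, 7.76 and 7.4 CPM in controls and 15.3, 15.5 and 15.5 CPM after Folfiri, with treated samples almost equal to each other and above all controls (log2 fold change 0.88 ± 0.12 SE, adjusted p = 6.06e-05). Overlaps with Lrrc59 and Mrpl27 on the opposite strand cover 10.7% of the exonic length of Eme1.

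**Figure D2:**
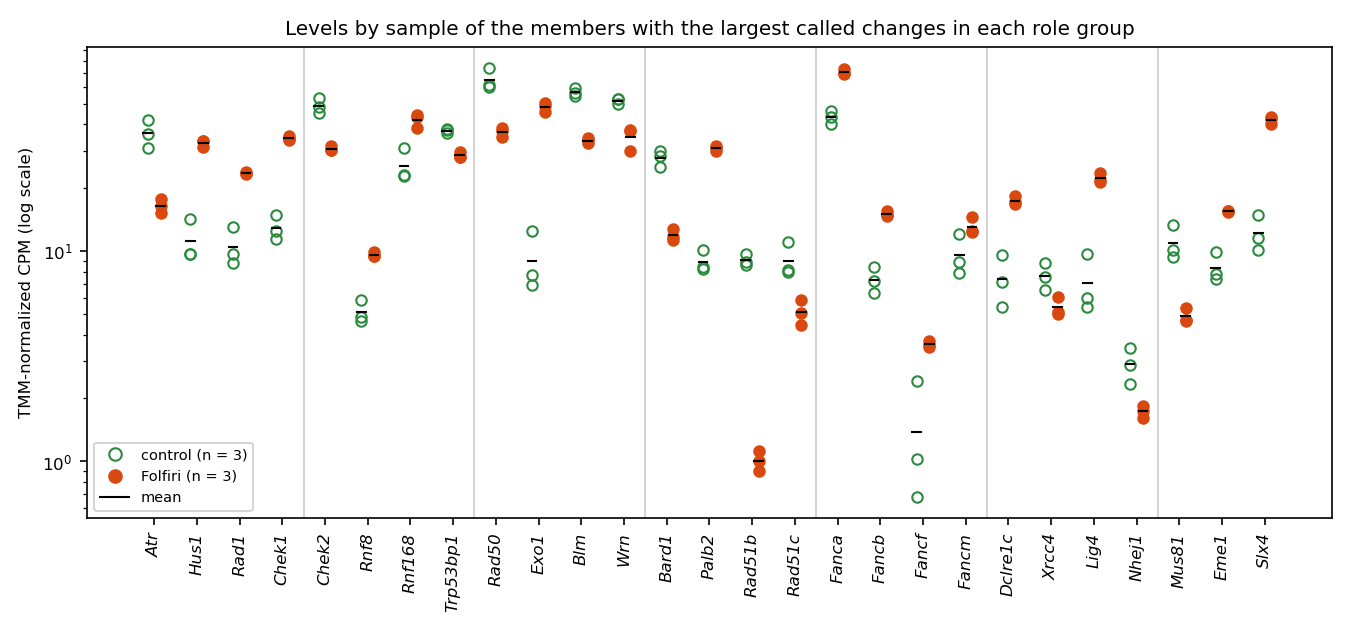
TMM-normalized CPM on a log scale in each control (open green circles) and Folfiri sample (filled orange circles) for the genes with the largest called changes of each role group, which grey lines separate, with black bars for group means. Only genes whose groups did not overlap were eligible, so the separation seen in each gene follows from the selection. On this scale the widest gap is that of Rad51b, with 8.60 to 9.67 CPM in controls and 0.905 to 1.12 CPM after Folfiri.

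Several of these genes encode subunits of 1 complex or paired kinases, and 13 such pairs were compared as the log2 ratio of counts within a sample, which does not depend on how libraries were scaled. In 11 of the 13 pairs the ratios of treated and control samples did not overlap, beside 81.4% of all tested genes taken singly. The share among other pairs of genes was not computed. Each of the 11 pairs gave p = 0.1 in a two-sided exact permutation test. This is the smallest p that 3 against 3 samples allow, so none could pass a threshold of 0.05. In 8 pairs with separate ratios the genes also had fold changes of opposite sign, although in 3 of them the sign is that of a gene not called, Rad9a at -0.09 (0.18 with total counts only) or Atm at 0.08 (-0.03 without control replicate 2). Among all tested genes 40.3% were higher and 38.8% lower, and the share of other pairs with opposite signs was not computed.

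The largest shift was that between end joining partners. The log2 ratio of Lig4 over Xrcc4 in controls 1 to 3 was 0.15, -0.34 and -0.26, and in the Folfiri samples it was 2.07, 1.96 and 2.07, a difference of 2.18. All treated ratios lay above all control ratios. Chek2 over Chek1 changed by -2.10, from 1.93 ± 0.08 to -0.17 ± 0.01 (SD, n = 3 each), with no overlap between groups. Eme1 over Mus81 moved from -0.39 ± 0.04 to 1.65 ± 0.11, a difference of 2.03. Atrip over Atr moved from -1.19 ± 0.20 to 0.62 ± 0.11, a difference of 1.81, so both of these subunit pairs shifted toward the gene that rose.

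Within the checkpoint clamp, the ratios over Rad9a increased by 1.66 for Hus1 and 1.28 for Rad1, with controls between -1.62 and -1.01 and treated samples between -0.21 and 0.35. Bard1 over Brca1 went from -1.07 ± 0.16 to -2.61 ± 0.05, a difference of -1.54. Atm over Atr was steady within groups, at -0.03 ± 0.01 and 1.20 ± 0.02, and differed by 1.23. Palb2 over Brca2 was -1.0, -0.11 and -0.06 in controls and 0.57, 0.66 and 0.85 after Folfiri, with control replicate 1 the lowest. Rad50 over Mre11a differed by -0.66 and Xrcc6 over Xrcc5 by 0.26. The ratios of Nbn over Mre11a (difference 0.04, exact permutation p = 0.7) and of Fanci over Fancd2 (difference 0.09, exact permutation p = 0.5) overlapped between groups.

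**Figure D3:**
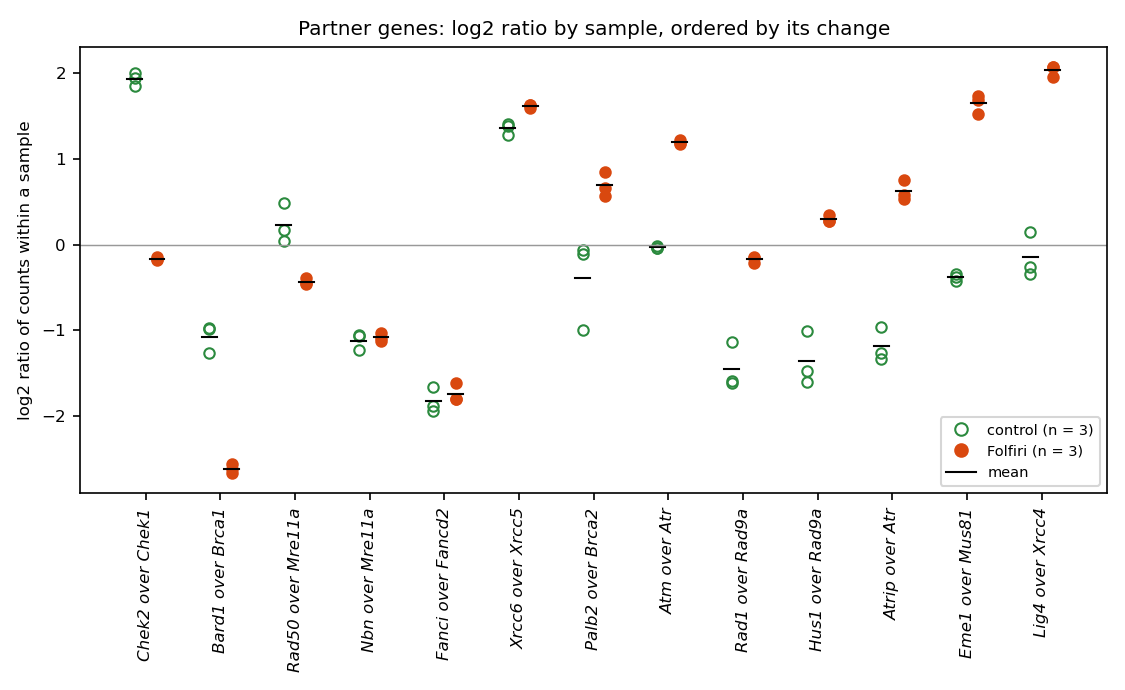
Log2 ratio of the counts of a gene over its partner in each control (open green circles) and Folfiri sample (filled orange circles), with black bars for means, for 13 pairs ordered by the change. Chek2 over Chek1 at the left fell by 2.10 and Lig4 over Xrcc4 at the right increased by 2.18, and Nbn over Mre11a and Fanci over Fancd2 are the pairs whose groups overlap.

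The genes also differed in genomic length. The 7 genes that span 100 kb or more were Rad51b (517 kb), Xrcc4 (316 kb), Fancc (212 kb), Prkdc (204 kb), Nhej1 (158 kb), Wrn (151 kb) and Rbbp8 (112 kb). None of them was higher, 6 were lower, and their median log2 fold change was -0.50. Of all tested genes of this length 23.5% were higher and 55% lower, with a median of -0.40. With total counts only the 7 genes lay between -2.88 (Rad51b) and -0.05 (Prkdc), and Xrcc4 and Fancc lost their calls. Of the 15 genes between 10 and 30 kb, 10 were higher and 2 lower, with a median of 0.70, beside 50.1% higher, 29.4% lower and a median of 0.27 among all tested genes of that length. The 6 genes below 10 kb went the other way from all tested genes of that length, with 3 higher, 1 lower and a median of 0.39 beside 36.4% higher, 43.1% lower and a median of -0.13. The 23 genes between 30 and 100 kb gave 9 higher and 7 lower with a median of 0.08, beside 41.3%, 37.1% and 0.05. Across the 51 genes Spearman's rho of span and log2 fold change was -0.52, and across 14687 tested genes it was -0.01. These correlations are across genes measured in the same 6 libraries, so they are given as descriptions.

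**Figure D4:**
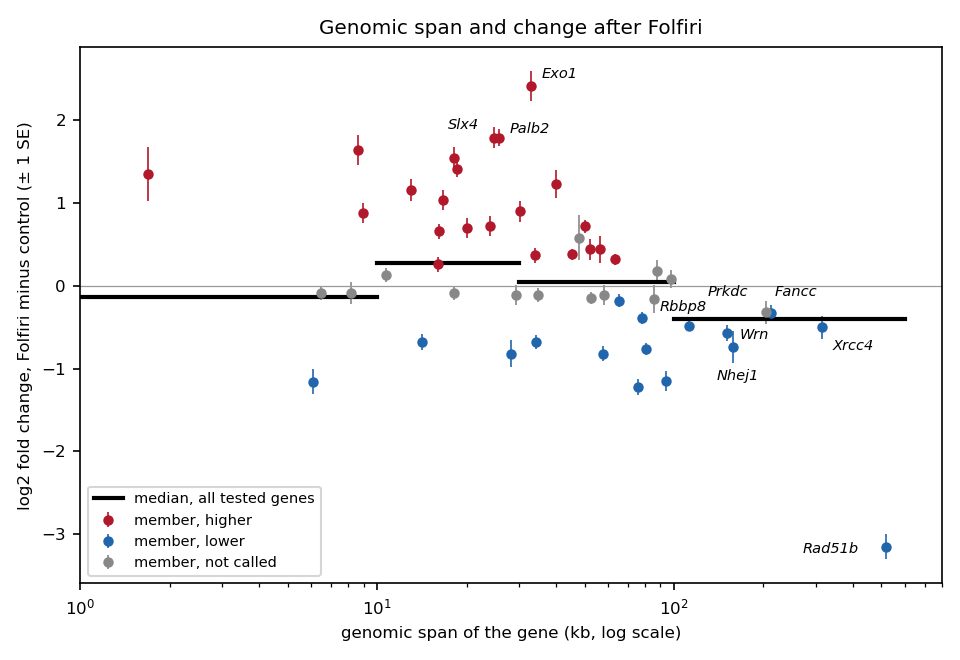
Log2 fold change (bars of 1 SE) of each of the 51 genes against its genomic span in kb on a log scale, colored by call, with black lines at the median of all tested genes below 10, from 10 to 30, from 30 to 100 and above 100 kb. The 7 genes to the right of 100 kb are all below 0, and the 10 genes called higher with a value of at least 1 span less than 100 kb.

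Other genes of these pathways were counted from a list of 62, of which 61 were matched. Of these 30 were higher (49.2%), 21 lower (34.4%) and 10 not called, beside 40.3% and 38.8% of all tested genes, with a median log2 fold change of 0.30. Without control replicates 2 or 3 the median was 0.12 or 0.13, and with total counts only the calls were 32 higher and 13 lower. Checkpoint mediators and cell cycle effectors gave 8 higher and 4 lower of 12, and Fanconi-associated genes 6 higher and 4 lower of 10. Recombination and resolution genes gave 8 and 3 of 16, or 9 and 5 without control replicate 1. Break-flanking chromatin genes gave 5 and 6 of 15, and other end joining genes 3 and 4 of 8.

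The largest rise in this list was that of Helq, a helicase of fork and crosslink repair, at 14.5, 8.8 and 7.1 CPM in controls and 39.1, 44.7 and 41.8 CPM after Folfiri (log2 fold change 2.03 ± 0.20 SE, adjusted p = 4.41e-06). Tipin, part of the fork protection complex that helps ATR activate CHK1, rose from 32.1 ± 6.85 to 98.0 ± 4.62 CPM (SD, n = 3 each; log2 fold change 1.61 ± 0.13 SE, adjusted p = 9.04e-07). Faap24, the partner of FANCM, had a log2 fold change of 1.60, and Rpa2, a subunit of the protein that coats single-stranded DNA, one of 1.46. All 4 genes had separate groups.

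The largest falls were those of Cdc25b and Cdc25c, phosphatases that the checkpoint kinases restrain, and of a pair of break-flanking chromatin genes. Cdc25a, the remaining phosphatase of this family, rose from 45.8 ± 2.56 to 72.6 ± 1.25 CPM (SD, n = 3 each; log2 fold change 0.66 ± 0.07 SE, adjusted p = 1.05e-05). Cdc25b, which activates CDKs for mitotic entry, was at 279, 354 and 359 CPM in controls and 87.5, 84.7 and 81.2 CPM after Folfiri (log2 fold change -1.97 ± 0.10 SE, adjusted p = 4.86e-08). Cdc25c, of the same family, fell from 42.0 ± 6.25 to 12.1 ± 0.398 CPM (SD, n = 3 each; log2 fold change -1.79 ± 0.12 SE, adjusted p = 2.07e-07). H2afx, the histone variant that is phosphorylated around breaks, had a log2 fold change of -1.58, and Babam2, a scaffold of the BRCA1-A complex, one of -1.39.

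Cell cycle genes were read beside these counts, since several of the 51 genes are known to be cycle-regulated. All 16 mitosis genes were lower, beside 38.8% of all tested genes, with a median log2 fold change of -0.87. With total counts only Kif20a was at 0.03 and the others below 0. Ccnb1, the mitotic cyclin, had levels of 260.0 ± 30.8 CPM in control MTOs against 188 ± 11.3 CPM in treated ones (SD, n = 3 each). Mki67, a proliferation marker, fell from 735 ± 34.1 to 246 ± 29.5 CPM (SD, n = 3 each; log2 fold change -1.58 ± 0.10 SE, adjusted p = 1.72e-07). Of 16 S phase genes 8 were higher, 5 lower and 3 not called, with a median of 0.11. These shares of 50% higher and 31.2% lower stood beside 40.3% and 38.8% of all tested genes. Mcm2, a subunit of the replicative helicase, rose from 87.2 ± 18.8 to 216 ± 13.0 CPM (SD, n = 3 each), while Pcna, the replication clamp, gave -0.07 and was not called. The part of cell cycle position in the changes of the 51 genes was not tested.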

How the data were processed

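RNA of 3 control and 3 Folfiri cultures of MTO54 organoids was sequenced from poly(A)-selected libraries made with a kit that does not mark strand. The authors aligned reads with STAR 2.5.2, per the submitters' processing notes, to mouse GRCm38 with GENCODE vM25, sorted them with Sambamba and counted them per gene with Rsubread, and the deposited values are raw counts with no normalization. The treatment of reads with several positions is not given in the sources used here. Without strand, reads of overlapping genes on opposite strands cannot be told apart. Total counts ranged from 22103591 to 30098210. No columns of other samples were present (0).

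Ensembl IDs were matched to symbols, positions, exonic lengths and overlaps in GENCODE vM21, on the same build, for 24168 of 24190 genes. Spans run from the first to the last annotated base, and levels per kb use the union of exons. Samples were grouped by the labels. Genes were kept by filterByExpr of edgeR 4.0.16 (R 4.3.3, default settings), libraries were scaled by TMM, and groups were compared by the quasi-likelihood test. The p-values were adjusted by Benjamini-Hochberg over 14692 genes, with a threshold of 0.05. Within-sample log2 ratios used counts plus 0.5 and two-sided exact permutation tests. Promoter windows are those of RefSeq on GRCm38.p6. The procedure was tested on simulated data with the means and depths of these libraries: among 14456 genes it recovered 188 of 197 that were changed, with the correct sign, and called 13 that were not. Few genes were changed in the simulation, whereas 79.1% of tested genes were called in the data, so it could not test the choice of scaling.

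The genes and lists were chosen with earlier results of these data known. In each role group, up to 4 genes are given in full, those with the largest called change and groups that do not overlap, plus both genes of pairs with separate ratios and fold changes of opposite sign. Of the other pathway genes, 4 per direction with a mean of at least 1 CPM are named, and of the cell cycle lists Mki67, Ccnb1, Pcna and Mcm2, together with Kif20a and, of the other pathway genes, Cdc25a, which were chosen after their values were seen. Of the windows of the genes with the largest changes, stretches of Rad51b and Palb2 are printed, and none of Slx4 and Mus81. The stretches with E2F letters were also chosen after the matches were seen. The alternatives comprised scaling by total counts only, by upper quartiles or by DESeq2 size factors, no filter, a filter of at least 1 CPM in at least 3 samples, the Wald test of DESeq2 1.42.0, the replicate number as a block and each sample left out in turn, and for ratios 2 counts added. No replicates were duplicates: their counts differed by more than sampling noise, with chi-square per degree of freedom of 3.76 to 25.3.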

Additional observations from a re-analysis of the deposited data

How the results depend on the processing

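Of the 38 called genes, 32 kept their call and direction in all 13 alternatives, and of the 13 genes not called 7 stayed so. With total counts only, which move the median of all tested genes from 0.02 to 0.30, the median log2 fold change was 0.35 for the 51 genes, 0.80 for the ATR branch, 0.26 for the ATM branch, -0.20 for end processing, 0.41 for recombination mediators, 0.18 for Fanconi anemia genes, 0.45 for end joining, 1.15 for the endonucleases and 0.57 for the other pathway genes, of which 13 were lower. Fancd2 then turned to 0.09 (adjusted p = 0.385 from edgeR), Trp53bp1, Fancc and Xrcc4 lost their calls, and Atm, Brca2, Xrcc3 and Xrcc5 were called higher. Relative to that shift of all genes, these medians were close to those with TMM. Upper quartile scaling gave -0.42 for end processing. With 1 sample left out, the median ranged from -0.03 to 0.10 for the 51 genes, -0.14 to 0.06 for Fanconi anemia genes and 0.12 to 0.37 for the other pathway genes, 0.06 to 0.36 for end joining, and the difference in Nbn over Mre11a ranged from -0.01, without control replicate 2, to 0.07. Calls of Xrcc2, Fancm and Fancd2 were lost in 8, 3 and 12 alternatives, and Brca2 was called higher in 4, with 0.84 with total counts only and 0.56 without a filter. Replicate numbers share only a label: the deviations of same-numbered samples correlated at 0.039, -0.193 and 0.043, and not every sample correlated best with its own number. With the replicate number as a block, 22 of the 51 genes were higher and 15 lower, Brca2 gained a call (0.69, adjusted p = 0.00202) and Xrcc2 and Fancd2 lost theirs. Fancf, Rad51b and Nhej1 had group means below 4 CPM in 1 or both groups, where the number of reads limits precision.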
